A study of Sus scrofa with 13 samples.

Results

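Messenger RNA of pig embryos (Sus scrofa) made by in vitro fertilisation (IVF) was compared between the blastocyst and the 4-cell stage, with every gene of the deposited table considered. The comparison takes 3 libraries of IVF blastocysts and 3 libraries of IVF 4-cell embryos, out of 13 libraries in the series, and 16312 of the 28232 genes in the table had enough counts to be tested. Both groups were produced by IVF, and each library was made from pooled embryos. The sources used here give no strain, embryo age, culture medium, pool size or origin of the replicates. P-values therefore measure only the spread between libraries, which may be technical. That spread was estimated over 9 IVF libraries, the compared ones and 3 of IVF hatched blastocysts. The libraries differ in stage and not in any stated treatment.

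The egg loads the early embryo with messages and proteins made during oocyte growth. These messages are kept silent, then translated, then destroyed, while the embryo's own genome is switched on, a step that in the pig falls at about the 4-cell stage. By the blastocyst the embryo has formed an outer epithelium, the trophectoderm, which pumps fluid into a central cavity, and an inner cell mass that gives the epiblast and the hypoblast.

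Total counts lay between 36392910 and 39273867 in blastocyst libraries and between 33259311 and 33771885 in 4-cell libraries. The labelled stages were checked against marker genes. The 9 trophectoderm markers summed to 32400 to 38500 TPM (the authors' level per gene length) in blastocysts and to 66.9 to 614 TPM in 4-cell embryos. The 10 oocyte markers summed to 2.87 to 10 TPM in blastocysts and to 15500 to 21800 TPM in 4-cell embryos. KRT8 alone gave 27448 to 33794 TPM of the trophectoderm sum in blastocysts. Of the 9 trophectoderm markers 7 were called higher, and TFAP2C and TEAD4 were not called. The marker lists of the inner cell mass and hypoblast were not higher in blastocysts. The 7 matched epiblast and inner cell mass markers summed to 1430 to 2090 TPM in blastocysts and 1550 to 2640 TPM in 4-cell embryos. The 8 hypoblast markers summed to 91.1 to 109 TPM and 113 to 137 TPM in the same order. The 4-cell group was uneven. Across genes, log2 levels of 4-cell library 1 correlated with those of libraries 2 and 3 at r = 0.764 and 0.760, and libraries 2 and 3 correlated at 0.868, while the 3 blastocyst pairs lay between 0.933 and 0.945. Genes are not independent replicates, so these values only describe the libraries. Results that rest on 4-cell library 1 are therefore given with and without it, and its differences are described at the end.

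Most of the detected transcriptome differed between the stages. At an adjusted p under 0.05 in the quasi-likelihood test of edgeR, 9105 of 16312 genes were called (55.8%), of which 4146 were higher in blastocysts (25.4%) and 4959 were lower (30.4%). These shares are the background for the counts of gene lists below. The ranges of the 2 groups did not overlap for 66.0% of all genes tested. The differences were large. Among genes called higher, 3385 had a fitted fold of at least 4 and the median log2 fold change was 3.91, and among genes called lower 4168 had a fold of at least 4 and the median was -4.67. With genes at 0 in a whole group held at a floor of 3 counts in each library, these medians were 3.47 and -4.21, and 467 genes were at least 100-fold higher and 1102 at least 100-fold lower in blastocysts. Without 4-cell library 1, 17355 genes could be tested, and 5568 were called higher and 5767 lower. Of the 9105 genes, 8787 were again called in the same direction and 0 in the opposite one. With the 6 compared libraries alone, and no hatched blastocysts in the fit, 7633 genes were called, 3158 higher and 4475 lower.

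**Figure D1:**
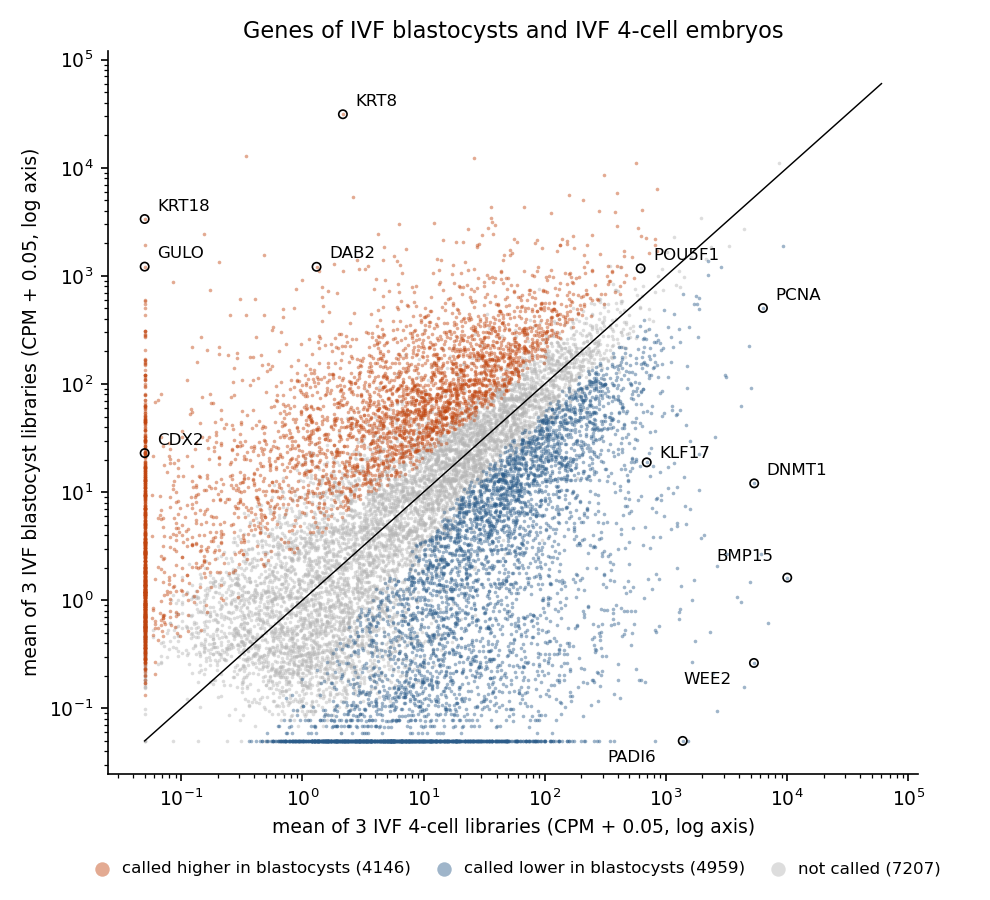
Each of the 16312 genes tested is a point, with its mean in IVF blastocysts (y axis) and in IVF 4-cell embryos (x axis), both in CPM (counts scaled to an equal library size) plus 0.05 on log axes, and the line marks equal levels. The 4146 genes called higher in blastocysts lie above the line and the 4959 called lower lie below it, and rows of points along the axes are genes with 0 counts in 1 stage.

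Many genes were detected at 1 stage and had no count at the other. Across the group, 260 genes with a mean of at least 5 CPM in blastocysts had 0 counts in all 3 of the 4-cell libraries, and 608 genes with at least 5 CPM in 4-cell embryos had 0 counts in all 3 blastocyst libraries. At these depths 3 counts correspond to 0.0804 to 0.0858 CPM in a blastocyst library and to 0.0668 to 0.0927 CPM in a 4-cell library, and folds against a group at 0 are given as lower bounds against that floor. Values of libraries 1, 2 and 3 of a group are given in that order, and CPM are scaled within this comparison and are compared between stages of 1 gene. The value after ± is an approximate standard error of a log2 fold change (blastocyst minus 4-cell) or, for TPM, the SD over 3 libraries. That standard error is the absolute log2 fold change divided by the square root of the F statistic of the edgeR test. It is least reliable for genes at or near 0 counts in a group. A CPM is a share of the messages of a library, so a gene can change its share when other messages are gained or lost, and fewer cells of a type and less RNA per cell cannot be told apart in pooled embryos. The RNA was poly(A)-selected, so a change in the amount of a message cannot be told apart from a change in its poly(A) tail. Tail length was not measured, and words such as rose, fell, gained and gone refer to poly(A)-selected messages.

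The most abundant messages of the stages were largely different. In blastocysts the gene with the highest level was KRT8, a keratin of simple epithelia, at 30039 ± 3330 TPM, against 2.45 ± 2.13 TPM in 4-cell embryos. FTL, the ferritin light chain, came next at 19397 ± 2710 TPM in blastocysts and was also the first in 4-cell embryos at 19386 ± 9770 TPM, and it was not called (log2 fold change 0.36 ± 0.45, edgeR adjusted p = 0.519). FTH1, the ferritin heavy chain, reached 17988 ± 2580 TPM in blastocysts and 1204 ± 219 TPM in 4-cell embryos. CTSD, a lysosomal protease, was at 10511 ± 2510 TPM in blastocysts and 0.29 ± 0.251 TPM in 4-cell embryos, and GM2A, the lysosomal GM2 ganglioside activator, at 9060 ± 1450 and 24.5 ± 6.38 TPM. The other leading genes of blastocysts were ATP5B, FABP3, ANXA2, CD9 and PPIA, and PPIA was not called (edgeR adjusted p = 0.0707). The 10 leading entries of 4-cell embryos also held UBB, the mitochondrial messages COX1 and ATP6 and a mitochondrial tRNA entry with no symbol, and UBB and ATP6 were not called. Among the leading genes of 4-cell embryos, PTTG1 (securin, which blocks the separation of sister chromatids until anaphase) was at 191 ± 46.2 TPM in blastocysts and 13284 ± 6990 TPM in 4-cell embryos. PCNA, the sliding clamp of DNA replication, was at 716 ± 80.3 TPM in blastocysts and 11420 ± 5270 TPM in 4-cell embryos. MCUB, a subunit of the mitochondrial calcium channel, was at 2.97 ± 2.45 and 8943 ± 3950 TPM in the same order, and BMP15, an oocyte growth factor, at 1.02 ± 1.06 and 8835 ± 1700 TPM. An unnamed gene with a place in this group, LOC100621706, was at 0.224 ± 0.389 TPM in blastocysts and 11580 ± 7970 TPM in 4-cell embryos. The 4-cell libraries spread more, with PTTG1 at 9046, 9459 and 21346 TPM and LOC100621706 at 3558, 19492 and 11688 TPM. At 1 TPM or more, 10169 to 10300 genes were detected in a blastocyst library and 12432 to 12447 in a 4-cell library.

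Messages for the growth factors and coat of the egg were nearly gone in blastocysts. Of 14 tested genes of oocyte growth and the zona pellucida, 13 were called lower and 1 higher, with a median log2 fold change of -10.78 (-9.59 with genes at 0 held at their bound), against -0.23 over all genes tested. BMP15 (chromosome X, 44613122 to 44620575, Sscrofa11.1), which the oocyte secretes to steer its follicle, had 3.41, 0.3 and 1.0 CPM in blastocysts and 9203, 7827 and 13016 CPM in 4-cell embryos, a log2 fold change of -12.64 ± 1.32 (edgeR adjusted p = 0.000139). All 3 blastocyst libraries lay over 1000-fold below every 4-cell library. GDF9, its partner, had 3.54, 1.61 and 0.715 CPM in blastocysts and 1410, 1037 and 1267 CPM in 4-cell embryos (-9.3 ± 1.25, edgeR adjusted p = 0.000476). The zona pellucida proteins ZP2, ZP3 and ZP4 form the coat that sperm bind. ZP4 had 1.64, 0.763 and 0.343 CPM in blastocysts and 2463, 3534 and 6396 CPM in 4-cell embryos (-12.13 ± 1.38), and ZP2 had 1.02, 0.0545 and 0.257 CPM against 341, 324 and 894 CPM (-10.18 ± 1.21). ASTL, a protease that in the mouse cleaves ZP2 after fertilisation, had 0 counts in blastocysts and 107, 116 and 164 CPM in 4-cell embryos, at least 1560-fold lower in blastocysts. The exception was CD9, a tetraspanin of the egg membrane that epithelia also carry. CD9 had 4352, 4799 and 3747 CPM in blastocysts and 108, 0 and 0 CPM in 4-cell embryos, and its call (6.9 ± 2.58, edgeR adjusted p = 0.047) was lost without 4-cell library 3 or without any 1 blastocyst library. It was also lost with library size only, with the 6 libraries alone and in the test against a 2-fold change, and DESeq2 gave no adjusted p for it.

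The subcortical maternal complex, a protein assembly under the egg membrane that in the mouse is needed for cleavage, was lower in all its measured members. All 14 tested members of the list, which also holds egg NLRP genes, were called lower in blastocysts, with a median log2 fold change of -11.07 (-9.17 with bounds). PADI6 (chromosome 6, 75969855 to 75987097), which in the mouse builds the lattices of the egg cytoplasm, had 0 counts in all 3 blastocyst libraries and 757, 1313 and 2055 CPM in 4-cell embryos, at least 16600-fold lower. NLRP9 had 2.52, 0.218 and 1.54 CPM in blastocysts and 3548, 5283 and 6015 CPM in 4-cell embryos (-11.76 ± 1.14, edgeR adjusted p = 0.0003). NLRP4 had 0 counts in blastocysts and 122, 382 and 529 CPM in 4-cell embryos. NLRP5, known as MATER, had 0, 0.627 and 0 CPM in blastocysts and 36.8, 55.1 and 148 CPM in 4-cell embryos (-8.55 ± 1.76). NLRP genes are related in sequence, so reads may have been divided between them. Among all named genes, those with 0 counts in blastocysts and the largest bounds also included CHODL, a membrane lectin, at 249, 1300 and 867 CPM in 4-cell embryos, and IRAK3, an inhibitor of innate immune signalling, at 23.5, 152 and 155 CPM.

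Proteins that keep egg messages silent and release them for translation were lower in blastocysts more often than genes at large. Of 20 tested genes of message storage and translation, 11 were called lower and 2 higher. CPEB1, which binds message tails and controls their lengthening, had 0 counts in blastocysts and 171, 295 and 345 CPM in 4-cell embryos. ZAR1L, a relative of the zygote arrest gene ZAR1, had 1.5, 0.573 and 0.172 CPM in blastocysts and 194, 477 and 681 CPM in 4-cell embryos (-9.22 ± 1.01). IGF2BP3, a message-binding protein, stayed detectable at 24.3, 21.5 and 21.4 CPM in blastocysts against 174, 340 and 346 CPM in 4-cell embryos (-3.68 ± 0.36). PAIP2, an inhibitor of the poly(A)-binding protein, went the other way, at 332, 330 and 282 CPM in blastocysts and 88.6, 20 and 17.1 CPM in 4-cell embryos (2.91 ± 0.62, edgeR adjusted p = 0.00421). The number called higher in this list was 4 without 4-cell library 1, and 1 without 4-cell library 2, blastocyst library 1 or blastocyst library 3.

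Factors that destroy egg messages were lower in blastocysts or not called. Of 26 tested genes of message decay, 13 were called lower and 0 higher, with a median of -1.25. BTG4, which recruits the CCR4-NOT deadenylase to egg messages, had 0, 0.654 and 0 CPM in blastocysts and 384, 2763 and 1734 CPM in 4-cell embryos (-12.84 ± 2.06, edgeR adjusted p = 0.00228). Its low 4-cell value was in library 1. CNOT7, a catalytic subunit of that deadenylase, had 300, 241 and 282 CPM in blastocysts and 1261, 1961 and 2272 CPM in 4-cell embryos (-2.74 ± 0.31), and CNOT6L, another, had 3.08, 1.88 and 3.35 CPM against 31.9, 82.0 and 82.2 CPM (-4.56 ± 0.52). ZCCHC6, which adds uridines to short-tailed messages, had 12.3, 11.3 and 10.8 CPM in blastocysts and 108, 48.6 and 64.1 CPM in 4-cell embryos. Without 4-cell library 1, 5 members of this list were called higher and 12 lower.

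Regulators of egg meiosis and egg-type chromatin were lower in blastocysts in 18 of 25 tested genes and higher in 0, with a median of -2.85. WEE2 (chromosome 18, 8171133 to 8196836), the oocyte kinase that holds back the cell cycle engine, had 0.268, 0 and 0.372 CPM in blastocysts and 2039, 5727 and 8188 CPM in 4-cell embryos (-14.59 ± 1.5, edgeR adjusted p = 0.000376). MOS, the kinase that arrests the egg in metaphase, had 0.912, 0.682 and 0.257 CPM in blastocysts and 740, 1163 and 1944 CPM in 4-cell embryos (-11.01 ± 1.26). H1FOO, the linker histone of oocytes, had 1.37, 0 and 0 CPM in blastocysts and 1220, 2638 and 3053 CPM in 4-cell embryos (-12.28 ± 2.15). KPNA7, the nuclear import receptor of oocytes, had 0.778, 0 and 0.915 CPM in blastocysts and 2505, 4852 and 13421 CPM in 4-cell embryos (-13.58 ± 2.1). In each of these genes 4-cell library 1 was the lowest of the 3, and it still stood more than 100-fold above every blastocyst library. DPPA3, which shields egg DNA methylation marks in the mouse, kept a higher level, at 144, 67.5 and 82.6 CPM in blastocysts and 210, 433 and 238 CPM in 4-cell embryos. Its call (-1.58 ± 0.44, edgeR adjusted p = 0.0139) was lost without 4-cell library 2, blastocyst library 2 or blastocyst library 3.

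Several egg proteins have a close relative used in body cells, and 17 such pairs could be followed at both stages. The egg-type member was called lower in 13 pairs and higher in 1, and the somatic-type member was called higher in 8 and lower in 4. In 6 pairs the egg-type member was called lower and the somatic-type member higher. Such calls do not by themselves show that 1 message replaced the other. YBX2 made up only 1.64 to 8.04% of its pair's summed TPM in 4-cell embryos, and NPM2 21.5 to 46.6%. UCHL1 still made up 26.2, 0.512 and 27.2% of its pair in blastocysts. In the poly(A)-binding proteins, PABPC1L was at 0.424 ± 0.47 TPM in blastocysts and 237 ± 58.7 TPM in 4-cell embryos, while PABPC1 was at 85.5 ± 19.6 TPM in blastocysts and 4.11 ± 4.8 TPM in 4-cell embryos. PABPC1L thus made up 0 to 1.45% of the summed TPM of the pair in blastocysts and 95.9 to 99.5% in 4-cell embryos. In the cap-binding proteins, EIF4E1B had 0 counts in blastocysts and 155, 472 and 393 TPM in 4-cell embryos, and EIF4E had 198, 138 and 199 TPM against 123, 28.9 and 16.8 TPM. Among the Y-box message packers, YBX2 fell to 0.824 ± 0.328 TPM in blastocysts, against 30.3 ± 12.3 TPM in 4-cell embryos, and YBX1 was at 1626 ± 383 and 677 ± 306 TPM. The other pairs of this kind were NPM2 with NPM1, WEE2 with WEE1, and UCHL1 with UCHL3. Their somatic-type calls were weak. The call of NPM1 was lost without 4-cell library 2 or 3 or blastocyst library 1 or 3, that of WEE1 without any 1 of those libraries or blastocyst library 2, and that of UCHL3 without 4-cell library 3 or blastocyst library 1 or 3. In 3 pairs both members were called lower. AURKC, the meiotic Aurora kinase, had 106, 73.7 and 90.3 CPM in blastocysts and 396, 565 and 993 CPM in 4-cell embryos, and AURKB, the mitotic one, had 52.9, 34.5 and 47.1 CPM against 78.9, 126 and 160 CPM. BTG4 with BTG1 and PDE3A with PDE3B were called lower in both members too, where the call of BTG1 was lost without blastocyst library 3 and that of PDE3B without 4-cell library 2 or 3 or blastocyst library 2 or 3. SLC2A3, taken here as the egg-type glucose carrier, was the 1 egg-type member called higher, and its call was lost without 4-cell library 3.

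**Figure D2:**
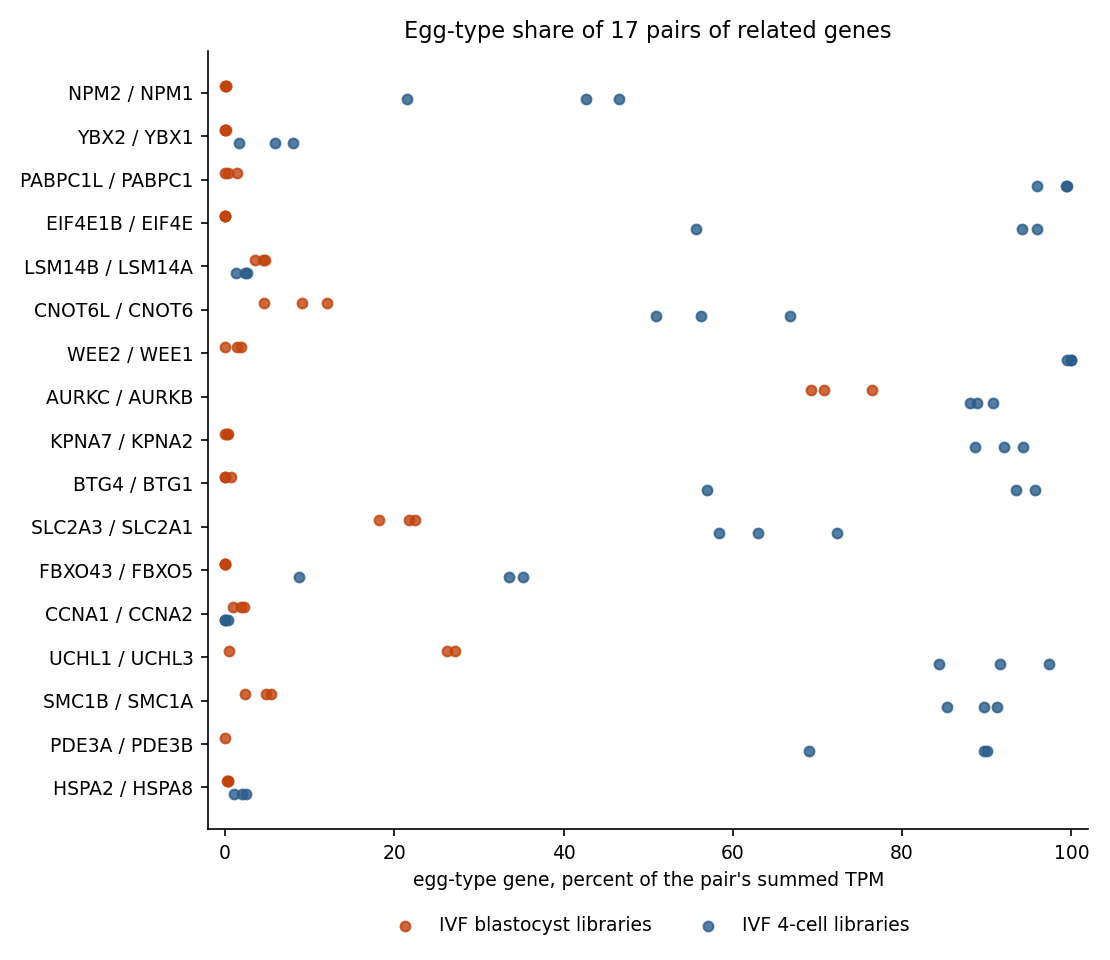
Each row is a pair of related genes, egg type first, and each point is 1 library, placed by the egg-type member's percent of the pair's summed TPM, with IVF blastocysts drawn above IVF 4-cell embryos in a row. For PABPC1L and PABPC1 the blastocyst points lie at 0 to 1.45% and the 4-cell points at 95.9 to 99.5%, and a blastocyst library with no count for both members of PDE3A and PDE3B has no point.

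Genes of embryonic genome activation, the burst of early transcription from the embryo's own DNA, were mostly lower in blastocysts. Of 26 tested genes 17 were called lower in blastocysts and 2 higher, with a median of -2.99. KLF17 (chromosome 6, 167176834 to 167188418), a zinc finger factor of early embryos, had 19.6, 25.5 and 11.4 CPM in blastocysts and 1388, 378 and 316 CPM in 4-cell embryos (-5.2 ± 0.68, edgeR adjusted p = 0.000412). The groups did not overlap, and 4-cell library 1 was the highest. MYC, a general amplifier of transcription, had 10.5, 7.82 and 9.38 CPM in blastocysts and 130, 36.4 and 29.4 CPM in 4-cell embryos (-2.82 ± 0.61). OTX2, a homeobox factor, had 29.9, 25.5 and 29.9 CPM in blastocysts and 160, 576 and 749 CPM in 4-cell embryos (-4.12 ± 0.58), here with library 1 the lowest. The paired-like homeobox gene DUXA, chosen after its values were seen, had 0.134, 0.409 and 0 CPM in blastocysts and 188, 168 and 281 CPM in 4-cell embryos (-10.16 ± 1.58). ZSCAN4, a marker of the first transcription wave in the mouse, had a single count in blastocysts and 1.07, 0.927 and 1.73 CPM in 4-cell embryos, a level 132-fold higher in the 4-cell embryos with a 95% counting interval of 23.2 to 5240. KLF5 rose, with 26.4, 38.9 and 43.3 CPM in blastocysts and 12, 5.8 and 11.7 CPM in 4-cell embryos (1.88 ± 0.42, edgeR adjusted p = 0.00515). Without 4-cell library 1 the list had 16 genes called lower and 5 higher, with a median of -1.67, and 1 was called higher without 4-cell library 2 or any 1 blastocyst library.

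The general transcription machinery did not move one way. Of 30 tested genes of RNA polymerase II and its general factors, 6 were called higher in blastocysts and 8 lower, with a median of 0.08. GTF2E1, a subunit of TFIIE, had 57.8, 70.8 and 59.6 CPM in blastocysts and 498, 1691 and 1181 CPM in 4-cell embryos (-4.16 ± 0.47), and POLR2C, a polymerase subunit, had 153, 152 and 147 CPM against 872, 687 and 983 CPM (-2.49 ± 0.28). GTF2H1, of TFIIH, had 223, 219 and 250 CPM in blastocysts and 51.8, 29.4 and 18.2 CPM in 4-cell embryos (2.8 ± 0.4). Splicing factors were among the least changed lists, with 2 of 29 called higher and 4 lower, both below the shares of all genes. PRPF19 had 5.34, 2.34 and 1.46 CPM in blastocysts and 25, 18.9 and 40.5 CPM in 4-cell embryos (-3.21 ± 0.66). These counts depended on single libraries. With 1 library left out, the polymerase list had 3 to 12 genes called higher and the splicing list 0 to 13. In both the highest count was without 4-cell library 1, and the lowest without blastocyst library 1 for the polymerase list and without any 1 blastocyst library for splicing, where 2 splicing genes were then called lower.

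Messages for ribosomes and for translation rose together. Of 77 tested cytosolic ribosomal protein genes, 65 were called higher in blastocysts and 0 lower, with a median log2 fold change of 2.72, and without 4-cell library 1 the numbers were 75 and 0 with a median of 3.88. RPL7 of the large subunit had 432, 358 and 415 CPM in blastocysts and 27.6, 32.0 and 28.5 CPM in 4-cell embryos (3.77 ± 0.27, edgeR adjusted p = 2.62e-05). RPS2 of the small subunit had 980, 1270 and 1167 CPM in blastocysts and 146, 108 and 81.1 CPM in 4-cell embryos (3.35 ± 0.34). Ribosomal protein genes have many near-identical copies, so their counts depend on how the authors divided shared reads. Among translation factors, 19 of 30 were called higher and 2 lower. EEF1G, a subunit of the elongation factor complex, had 1125, 1170 and 1161 CPM in blastocysts and 1.67, 1.09 and 5.81 CPM in 4-cell embryos (8.66 ± 0.75, edgeR adjusted p = 5.74e-05). EEF1A1, which delivers tRNAs to the ribosome, had 3548, 4727 and 3406 CPM in blastocysts and 256, 479 and 406 CPM in 4-cell embryos (3.35 ± 0.35). EIF5B, which joins the ribosomal subunits, fell, with 56.2, 44.1 and 80.8 CPM in blastocysts against 280, 427 and 603 CPM in 4-cell embryos (-2.85 ± 0.42). The nucleolus, where ribosomes are assembled, was mixed, with 6 of 30 called higher and 7 lower. GNL3, or nucleostemin, had 208, 121 and 190 CPM in blastocysts and 24.6, 12.1 and 5.13 CPM in 4-cell embryos (3.63 ± 0.56), and POLR1D, of RNA polymerases I and III, had 58.4, 55.7 and 54.2 CPM against 209, 118 and 169 CPM (-1.56 ± 0.3). With 1 library left out this nucleolar list had 2 to 14 genes called higher, the most without 4-cell library 1 and the fewest without blastocyst library 1. It had 3 to 7 called lower, the fewest without blastocyst library 2 or 3, and 3 were called higher without 4-cell library 3 or blastocyst library 3.

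Energy genes of the nucleus rose, and messages of the mitochondrial genome were called lower or not called. Of 62 tested nuclear genes for subunits of oxidative phosphorylation, 58 were called higher in blastocysts and 1 lower, with a median of 3.67. NDUFA5 of complex I had 103, 93.7 and 121 CPM in blastocysts and 0.847, 0.742 and 0.958 CPM in 4-cell embryos (6.96 ± 0.34, edgeR adjusted p = 1.51e-05). UQCRB of complex III had 155, 148 and 168 CPM in blastocysts and 3.94, 3.47 and 4.79 CPM in 4-cell embryos (5.27 ± 0.31), and ATP5O of ATP synthase had 494, 461 and 580 CPM against 5.53, 4.98 and 7.57 CPM (6.41 ± 0.35). Both groups were tight in these genes and did not overlap. NDUFA1, at 43.4, 42.6 and 47.1 CPM in blastocysts and 53.9, 125 and 138 CPM in 4-cell embryos, was the 1 called lower, and that call was lost without any 1 library other than 4-cell library 1. Of the 13 messages encoded by mitochondrial DNA, 0 were called higher and 7 lower, beside 25.4% and 30.4% of all genes. Their median was -1.01. COX1, a core subunit of complex IV, had 2299, 2180 and 1148 CPM in blastocysts and 6894, 9963 and 10902 CPM in 4-cell embryos (-2.3 ± 0.38, edgeR adjusted p = 0.00124), and ND5 of complex I had 483, 382 and 468 CPM against 1001, 1385 and 1106 CPM (-1.39 ± 0.3). The number of mitochondrial messages called lower was 3 without 4-cell library 2, blastocyst library 2 or blastocyst library 3, near the share of all genes. It was 2 in the test against a 2-fold change, so the lower calls of this list are not firm. Its median stayed between -1.03 and -0.66 with 1 library left out.

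Glycolysis and the citric acid cycle rose as well. Of 18 tested genes of glycolysis, 13 were called higher in blastocysts and 4 lower. SLC2A1, the glucose carrier GLUT1, had 274, 301 and 296 CPM in blastocysts and 14.2, 5.64 and 9.18 CPM in 4-cell embryos (4.9 ± 0.4, edgeR adjusted p = 4.11e-05). The phosphofructokinases, which set the pace of glycolysis, changed in opposite directions. The liver form PFKL had 81.3, 114 and 78.7 CPM in blastocysts and 2.58, 2.81 and 4.05 CPM in 4-cell embryos (4.86 ± 0.35), and the platelet form PFKP had 5.26, 13 and 4.89 CPM against 28.6, 75.1 and 149 CPM (-3.45 ± 0.68). In the citric acid cycle, 15 of 21 were called higher and 1 lower. MDH1, on this list but the cytosolic and not the mitochondrial malate dehydrogenase, had 1040, 934 and 846 CPM in blastocysts and 6.22, 4.24 and 1.55 CPM in 4-cell embryos (7.87 ± 0.6). DLD, a subunit of pyruvate dehydrogenase, had 1011, 1120 and 1281 CPM in blastocysts and 24.2, 14.9 and 30.3 CPM in 4-cell embryos (5.62 ± 0.38). The 1 lower gene was CS, citrate synthase, at 1196, 1270 and 1649 CPM in blastocysts and 1972, 1994 and 2762 CPM in 4-cell embryos, and its call was lost without any 1 library other than 4-cell library 1.

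Lipid and steroid genes and lysosomal genes were gained. In sterol and fatty acid synthesis, 19 of 26 were called higher in blastocysts and 4 lower, with a median of 2.98. SC5D, a late enzyme of cholesterol synthesis, had 281, 239 and 268 CPM in blastocysts and 1.78, 3.73 and 2.07 CPM in 4-cell embryos (6.7 ± 0.43), and FDPS, which makes farnesyl diphosphate, had 420, 277 and 384 CPM against 9.65, 14.7 and 13.2 CPM (4.85 ± 0.36). ACACA, the first enzyme of fatty acid synthesis, fell, with 5.6, 1.8 and 2.43 CPM in blastocysts and 133, 116 and 137 CPM in 4-cell embryos (-5.29 ± 0.51, edgeR adjusted p = 8.69e-05). Of 10 tested genes of steroid synthesis, 7 were called higher and 0 lower, with a median of 6.34 (4.60 with bounds). The low-count filter can keep a gene through its blastocyst counts alone. With no filter 13 steroid genes were tested, 7 called higher and 0 lower, with a median of 3.36. HSD17B1, which forms estradiol, the signal by which pig embryos announce pregnancy, had 110, 271 and 114 CPM in blastocysts and 0 counts in 4-cell embryos, at least 2070-fold higher. CYP17A1, which makes androgens, had 10.6, 33.6 and 3.57 CPM in blastocysts and 0 counts in 4-cell embryos. In the lysosome list, 23 of 27 were called higher and 4 lower, with a median of 5.06. LAMP2, a lysosomal membrane protein, had 1659, 2048 and 1507 CPM in blastocysts and 65.9, 38.9 and 51.2 CPM in 4-cell embryos (5.06 ± 0.37). LIPA, the acid lipase, had 18.6, 9.41 and 11.3 CPM in blastocysts and 151, 141 and 171 CPM in 4-cell embryos (-3.56 ± 0.41). Between 2 and 4 lysosomal genes were called lower with 1 library left out, the fewest without blastocyst library 1.

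The trophectoderm programme and its epithelium appeared between the stages. Of 20 tested trophectoderm genes, 13 were called higher in blastocysts and 0 lower, with a median of 4.42. CDX2 (chromosome 11, 5339727 to 5346081), a factor that specifies trophectoderm in the mouse, had 27.9, 28.1 and 12.8 CPM in blastocysts and 0 counts in all 3 of the 4-cell libraries, at least 288-fold higher (edgeR adjusted p = 7.37e-05). GATA2 had 166, 240 and 168 CPM in blastocysts and 0, 0 and 0.464 CPM in 4-cell embryos (10.34 ± 1.43). GATA3 had 50.1, 86.0 and 71.5 CPM in blastocysts and 6.68, 0 and 4.11 CPM in 4-cell embryos (4.26 ± 1.33, edgeR adjusted p = 0.0232), and its call was lost without 4-cell library 3 or without blastocyst library 2 or 3. DAB2, an endocytic adaptor, had 1144, 1335 and 1161 CPM in blastocysts and 1.8, 1.43 and 0.556 CPM in 4-cell embryos (9.9 ± 0.61). Of 19 tested keratins and genes of desmosomes and adherens junctions, 13 were called higher and 1 lower. KRT8 (chromosome 5, 18172423 to 18180277) had 30708, 28300 and 34734 CPM in blastocysts and 0, 2.75 and 3.59 CPM in 4-cell embryos (13.86 ± 1.8, edgeR adjusted p = 0.0004). Its partner KRT18 (chromosome 5, 18217686 to 18221432) had 3134, 3506 and 3431 CPM in blastocysts and 0 counts in 4-cell embryos, at least 42100-fold higher and the largest such bound of any gene. DSG2 and PKP3, both of desmosomes, had 209, 319 and 305 CPM and 293, 378 and 260 CPM in blastocysts and 0 counts in 4-cell embryos. CDH1, or E-cadherin, was already present, with 218, 341 and 350 CPM in blastocysts and 119, 99.7 and 88.6 CPM in 4-cell embryos (1.56 ± 0.3).

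Tight junction and polarity genes rose in 13 of 25 and fell in 6. CLDN4, a claudin, had 1395, 1474 and 1429 CPM in blastocysts and 5.15, 19.9 and 13.3 CPM in 4-cell embryos (6.81 ± 0.56). PRKCZ, an atypical protein kinase C of the polarity complex, had 166, 171 and 101 CPM in blastocysts and 0.312, 0.556 and 0.68 CPM in 4-cell embryos (8.14 ± 0.48). TJP1, a scaffold of tight junctions, was instead lower, at 36.5, 53.3 and 55.0 CPM in blastocysts and 149, 149 and 201 CPM in 4-cell embryos (-1.78 ± 0.31). The 6 lower calls were 3 without any 1 blastocyst library. Pumps and water channels that fill the cavity were mixed, with 3 of 13 called higher and 2 lower, both below the shares of all genes. AQP3, a water and glycerol channel, had 347, 530 and 371 CPM in blastocysts and 0, 1.93 and 0 CPM in 4-cell embryos (9.33 ± 1.82), and SCNN1A, a sodium channel subunit, had 12.4, 19.7 and 11.4 CPM against 0, 0.212 and 0.433 CPM (6.08 ± 1.17). ATP2B1, a calcium pump, had 14.5, 21.5 and 21.0 CPM in blastocysts and 158, 98.5 and 212 CPM in 4-cell embryos (-3.04 ± 0.4). ATP1B1, a beta subunit of the sodium pump, was near 1 CPM at both stages, with 1.56, 0.927 and 1.14 CPM in blastocysts and 1.49, 3.31 and 0.309 CPM in 4-cell embryos, and was not called (-0.5 ± 0.94, edgeR adjusted p = 0.675). Without 4-cell library 2, 4 genes of this list were called lower.

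**Figure D3:**
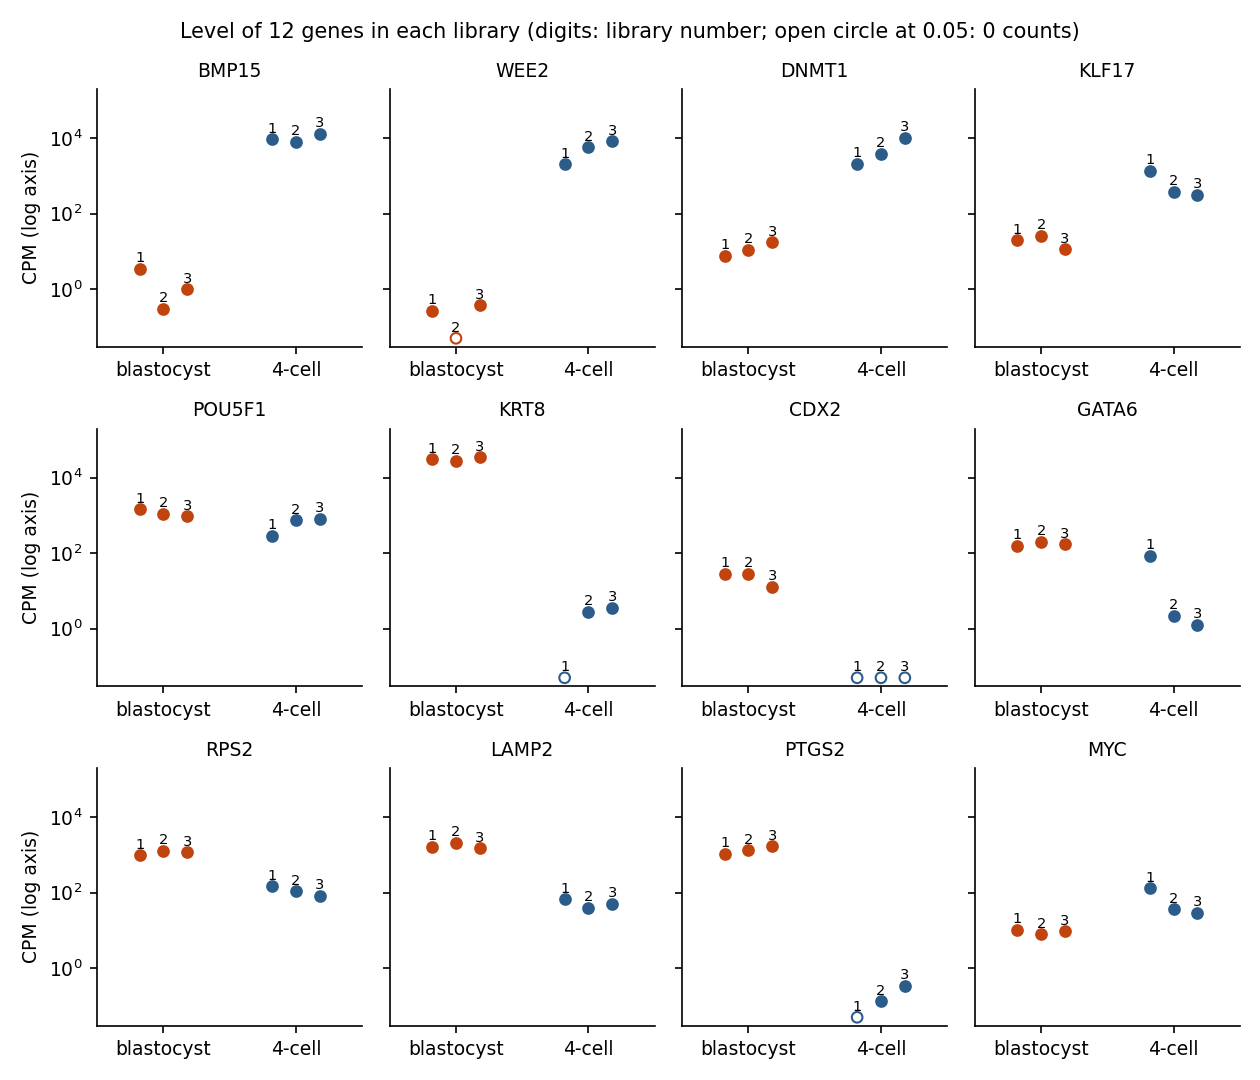
The level of 12 genes in each library is shown in CPM on a log axis, with IVF blastocysts on the left and IVF 4-cell embryos on the right of each panel, digits giving the library number and open circles at 0.05 marking 0 counts. BMP15, WEE2 and DNMT1 are low in all 3 blastocyst libraries, KRT8, CDX2, LAMP2 and PTGS2 are high in them, and GATA6 has 84.8 CPM in 4-cell library 1 against 2.2 and 1.27 CPM in libraries 2 and 3.

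Among blastocyst genes outside the lists, those with 0 counts in 4-cell embryos and the largest bounds were enzymes, transporters and secreted proteins. RGN, the calcium-binding protein regucalcin, had 2054, 1864 and 1825 CPM in blastocysts, at least 24000-fold higher. GULO (chromosome 14, 11299858 to 11332892), which makes the last step of vitamin C synthesis, had 1528, 1209 and 919 CPM, at least 15300-fold higher. ARG1, arginase, had 542, 763 and 476 CPM, and SLC19A3, a thiamine carrier, had 361, 502 and 441 CPM in blastocysts. BEST2, an anion channel, RENBP, an epimerase of amino sugars, and CST6, a protease inhibitor, had means of 591, 551 and 508 CPM in blastocysts.

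Genes of pluripotency and the inner cell mass were called in both directions. Of 19 tested, 3 were called higher and 8 lower, beside 25.4% and 30.4% of all genes, with a median of -1.08. POU5F1 (chromosome 7, 23564654 to 23570691), the factor OCT4, had 1449, 1120 and 948 CPM in blastocysts and 283, 745 and 825 CPM in 4-cell embryos, groups that did not overlap but were not called apart (0.92 ± 0.41, edgeR adjusted p = 0.0829). SOX2, its partner in the inner cell mass, had 1.39, 0 and 2.72 CPM in blastocysts and 66.2, 35.0 and 54.0 CPM in 4-cell embryos (-5.24 ± 1.31, edgeR adjusted p = 0.00887). STAT3, which relays cytokine signals, had 3.51, 2.59 and 5.29 CPM in blastocysts and 38.3, 57.9 and 57.2 CPM in 4-cell embryos (-3.75 ± 0.5). TDGF1, a co-receptor for NODAL, had 296, 400 and 179 CPM in blastocysts and 0 counts in 4-cell embryos, at least 3660-fold higher. The counts moved to 5 genes higher without 4-cell library 1 and to 5 lower without blastocyst library 1 or 2. Without blastocyst library 3, 6 were called lower. These lower counts, each of 21 tested, are near the share of all genes, so the genes named here are single results.

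Hypoblast genes were called higher in 8 of 22 and lower in 5. SOX17 had 5.63, 2.48 and 3.2 CPM in blastocysts and 0, 0 and 0.216 CPM in 4-cell embryos (5.7 ± 1.65, edgeR adjusted p = 0.0169). APOA1, an apolipoprotein, had 736, 194 and 379 CPM in blastocysts and 0, 0.053 and 0.556 CPM in 4-cell embryos (11.12 ± 1.52). The basement membrane collagens COL4A1 and COL4A2 were low in blastocysts, at 3.49, 2.81 and 5.26 CPM and at 5.2, 4.34 and 5.75 CPM. COL4A1 had 3 counts in 4-cell embryos, a level 147-fold higher in blastocysts with a 95% counting interval of 49.9 to 714, and COL4A2 had 0 counts there, at least 63.9-fold higher. GATA4 fell, with 15.8, 15.9 and 16.7 CPM in blastocysts and 43.7, 243 and 208 CPM in 4-cell embryos (-3.35 ± 0.59). GATA6 (chromosome 6, 107282709 to 107314725), which starts the hypoblast programme in the mouse, had 154, 196 and 172 CPM in blastocysts and 84.8, 2.2 and 1.27 CPM in 4-cell embryos, and was not called (2.56 ± 1.31, edgeR adjusted p = 0.125). With 1 library left out, 2 to 6 hypoblast genes were called lower, 2 without blastocyst library 2 or 3, and 3 without 4-cell library 3 or blastocyst library 1.

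DNA methyltransferases were lower in blastocysts. DNMT1 (chromosome 2, 68981564 to 69040364), which copies methylation at replication, had 7.64, 11 and 17.4 CPM in blastocysts and 2088, 3820 and 10123 CPM in 4-cell embryos (-8.79 ± 0.84, edgeR adjusted p = 8.82e-05). The new-methylation enzymes DNMT3A and DNMT3B had 18.5, 27.0 and 16.4 CPM and 3.11, 5.86 and 3.43 CPM in blastocysts, against 463, 469 and 652 CPM and 17.2, 31.8 and 37.8 CPM in 4-cell embryos (-4.68 ± 0.34 and -2.81 ± 0.62). TET1, which oxidises methylated cytosine, rose, with 82.3, 56.3 and 81.3 CPM in blastocysts and 9.78, 2.67 and 7.6 CPM in 4-cell embryos (3.45 ± 0.55). Over the list of DNA methylation and histone modifiers, 4 of 27 were called higher and 11 lower, and without 4-cell library 1 the numbers were 9 and 12. Of 15 tested imprinted genes, 4 were called higher and 5 lower. MEST had 17.6, 36.7 and 19.5 CPM in blastocysts and 224, 386 and 389 CPM in 4-cell embryos (-3.76 ± 0.43), and GNAS had 115, 137 and 96.3 CPM against 10.8, 12.2 and 11.2 CPM (3.35 ± 0.29). IGF2, the fetal growth factor, was near 1 CPM at both stages and was not called (0.42 ± 0.92, edgeR adjusted p = 0.718). With 1 library left out, 2 to 4 imprinted genes were called higher and 3 to 6 lower, with the fewest higher without blastocyst library 2 and the fewest lower without blastocyst library 1.

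Cell cycle lists held called genes in both directions, at shares near or below the 25.4% higher and 30.4% lower of all genes, so the counts show nothing about the lists as wholes. In DNA replication 5 of 29 were called higher and 7 lower. PCNA had 573, 444 and 493 CPM in blastocysts and 2322, 7844 and 8774 CPM in 4-cell embryos (-3.65 ± 0.49, edgeR adjusted p = 0.000476), and CCNE1, cyclin E, had 46.0, 42.9 and 43.1 CPM against 248, 142 and 126 CPM (-1.97 ± 0.33). RFC3, of the clamp loader, had 58.6, 44.3 and 56.3 CPM in blastocysts and 16, 12 and 13.5 CPM in 4-cell embryos (1.94 ± 0.3). In mitosis 5 of 30 were called higher and 10 lower. PTTG1 had 117, 69.9 and 89.8 CPM in blastocysts and 2665, 3413 and 8997 CPM in 4-cell embryos (-5.77 ± 0.56), and BUB1B, of the spindle checkpoint, had 23.8, 18.2 and 34.9 CPM against 371, 849 and 1042 CPM (-4.88 ± 0.5). CCNA2, cyclin A, had 192, 174 and 195 CPM in blastocysts and 970, 632 and 805 CPM in 4-cell embryos (-2.1 ± 0.28). CDKN1A, the cell cycle inhibitor p21, rose, with 258, 262 and 203 CPM in blastocysts and 8.78, 9.59 and 10.4 CPM in 4-cell embryos (4.65 ± 0.29, edgeR adjusted p = 1.57e-05). Without 4-cell library 1 the mitosis list had 9 genes called higher and 11 lower, and without blastocyst library 1 or 2 the replication list had 4 called lower.

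CDKN1A is also a target of p53, and that list rose. Of 19 tested p53 targets and cell death genes, 10 were called higher in blastocysts and 1 lower, with a median of 2.87. MDM2, which degrades p53, had 158, 200 and 166 CPM in blastocysts and 3.45, 2.38 and 5.5 CPM in 4-cell embryos (5.53 ± 0.43), and ZMAT3 had 175, 231 and 242 CPM against 3.3, 10.6 and 19.3 CPM (4.29 ± 0.6). BCL2L1, which protects from cell death, was the 1 lower, at 57.6, 59.9 and 40.2 CPM in blastocysts and 149, 287 and 297 CPM in 4-cell embryos (-2.22 ± 0.34). Antioxidant genes were called higher in 13 of 24 and lower in 5. PRDX3, the mitochondrial peroxiredoxin, had 1303, 1390 and 1118 CPM in blastocysts and 20.7, 11.7 and 19.5 CPM in 4-cell embryos (6.2 ± 0.36), and SOD2, the mitochondrial superoxide dismutase, had 332, 240 and 366 CPM against 5.61, 12.5 and 6.71 CPM (5.24 ± 0.42). GPX3, a secreted peroxidase, had 7.78, 9.27 and 5.95 CPM in blastocysts and 38.1, 93.9 and 94.9 CPM in 4-cell embryos (-3.3 ± 0.55). The 5 lower calls were 3 without 4-cell library 3 or blastocyst library 1 or 2.

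Protein folding and turnover genes were gained in part. Of 32 tested proteasome genes, 19 were called higher in blastocysts and 3 lower, and PSMB5, a catalytic subunit, had 410, 352 and 461 CPM in blastocysts and 20.8, 23.6 and 19.7 CPM in 4-cell embryos (4.25 ± 0.29). PSMD11, of the regulatory cap, was lower, at 321, 264 and 385 CPM in blastocysts and 1013, 1114 and 1722 CPM in 4-cell embryos (-1.99 ± 0.32). The number of proteasome genes called lower was 1 without 4-cell library 3 or any 1 blastocyst library. Heat shock proteins were called higher in 8 of 18 and lower in 2. HSPD1, the mitochondrial chaperonin, had 1255, 1202 and 1729 CPM in blastocysts and 65.0, 33.6 and 36.5 CPM in 4-cell embryos (4.95 ± 0.38). DNAJB1, a stress-induced co-chaperone, had 184, 121 and 114 CPM in blastocysts and 1113, 381 and 427 CPM in 4-cell embryos (-2.2 ± 0.46). In the unfolded protein and integrated stress response, 7 of 24 were called higher and 5 lower. XBP1, a factor of that response, had 612, 428 and 428 CPM in blastocysts and 4.12, 6.36 and 7.82 CPM in 4-cell embryos (6.33 ± 0.39), and MANF had 53.8, 27.8 and 55.7 CPM against 226, 229 and 243 CPM (-2.35 ± 0.34). HSPA5, the main chaperone of the endoplasmic reticulum, had 1081, 556 and 895 CPM in blastocysts and 684, 128 and 291 CPM in 4-cell embryos, ranges that overlapped, and was not called (1.2 ± 0.59, edgeR adjusted p = 0.112). Without 4-cell library 1, 13 heat shock genes and 12 genes of the unfolded protein response were called higher.

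Some genes by which the blastocyst takes up nutrients and signals to the uterus were among the gains. Of 18 tested amino acid transporters, 8 were called higher and 5 lower, beside 25.4% and 30.4% of all genes. The lower calls were near the share of all genes, and the higher calls were too without any 1 blastocyst library. The transporters named here are therefore single results. SLC3A2, the heavy chain of several carriers, had 95.3, 143 and 130 CPM in blastocysts and 0.98, 2.2 and 2.07 CPM in 4-cell embryos (6.13 ± 0.44), and SLC1A4, a carrier of neutral amino acids, had 7.8, 1.88 and 12.6 CPM against 119, 59.7 and 57.4 CPM (-3.4 ± 0.69). With 1 library left out 5 to 10 transporters were called higher and 2 to 7 lower, with 5 higher without any 1 blastocyst library, 2 lower without 4-cell library 3 or blastocyst library 1 or 2, and 3 lower without 4-cell library 2. Of 6 tested placental and pregnancy genes, 5 were called higher and 0 lower, with a median of 9.56 (5.03 with bounds). The low-count filter can keep a gene through its blastocyst counts alone, which favours a high median. With no filter 9 of this list were tested, 5 called higher and 0 lower, with a median of 3.82. PTGS2 (chromosome 9, 127850164 to 127858866), which makes prostaglandins, had 1063, 1308 and 1673 CPM in blastocysts and 0, 0.132 and 0.34 CPM in 4-cell embryos (13.1 ± 1.15, edgeR adjusted p = 5.9e-05). UPTI, a trypsin inhibitor of the pig uterus and placenta, had 252, 400 and 274 CPM in blastocysts and 0 counts in 4-cell embryos, at least 3870-fold higher. PAG6, of the pregnancy-associated glycoproteins, a family with close copies that can share reads, had 11.3, 2.07 and 3.2 CPM in blastocysts and 0 counts in 4-cell embryos. Growth factors and signalling genes were called higher in 6 of 32 and lower in 8, and higher in 10 without 4-cell library 1. BMP4 had 6.62, 10.5 and 9.01 CPM in blastocysts and 895, 154 and 329 CPM in 4-cell embryos (-5.72 ± 0.7), and HBEGF, a ligand of the EGF receptor family, had 24.5, 12.4 and 19.4 CPM against 232, 296 and 373 CPM (-4.0 ± 0.39).

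**Figure D4:**
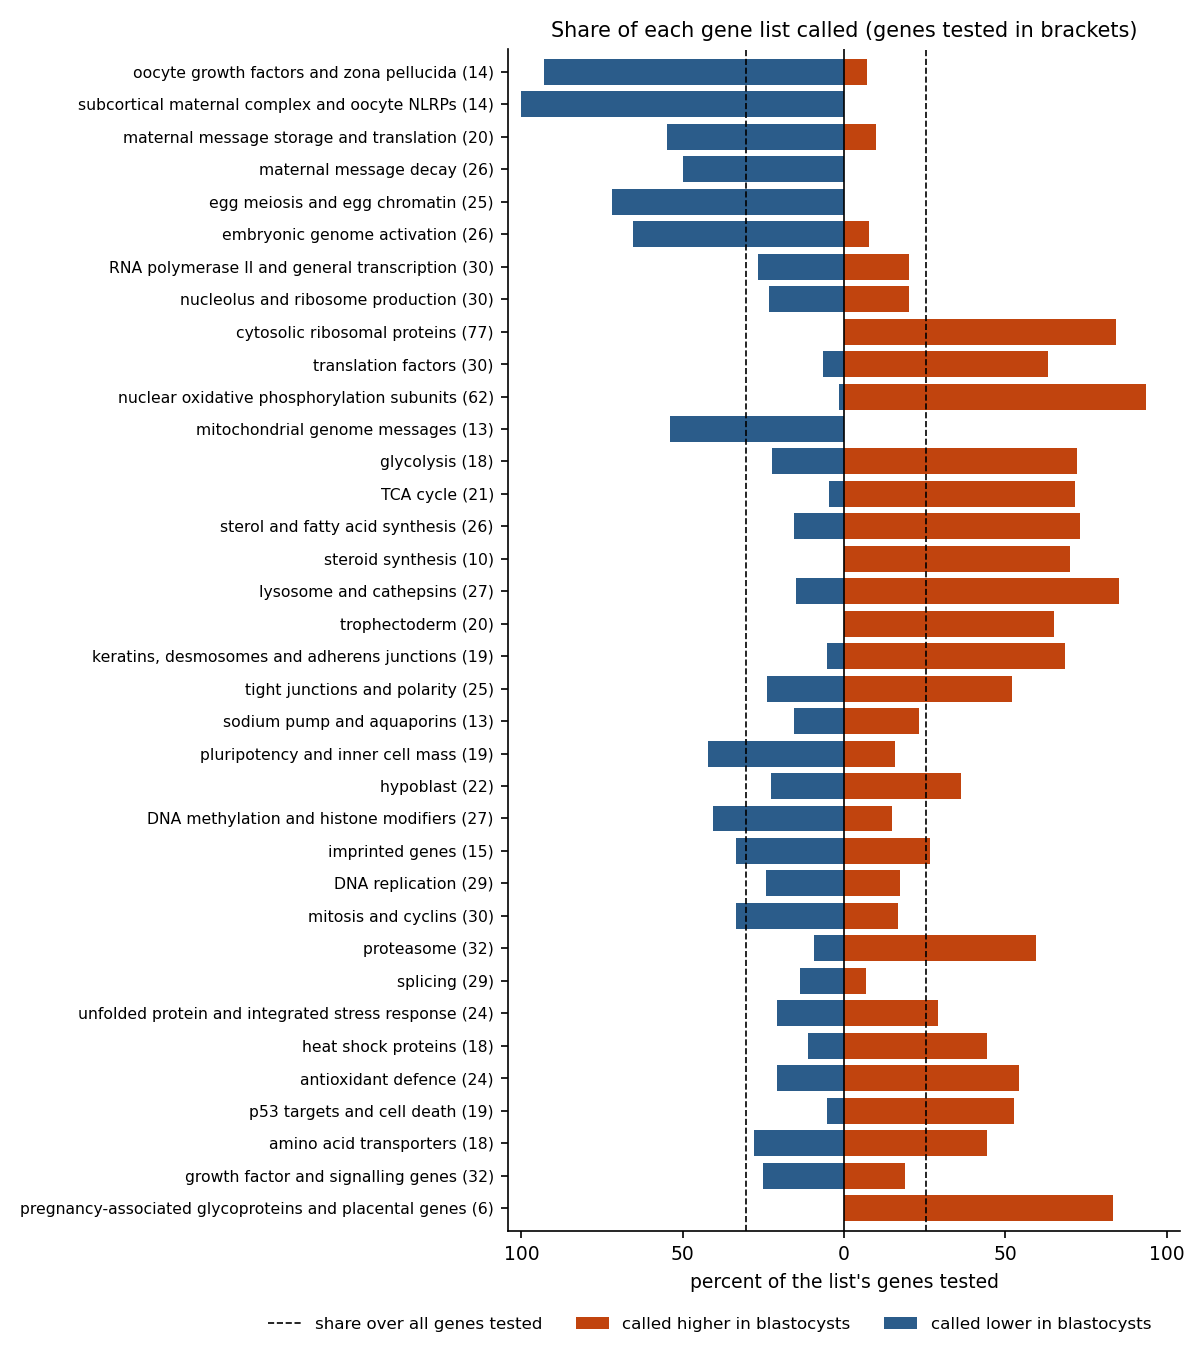
For each of 36 gene lists, bars to the right give the percent of its tested genes called higher in IVF blastocysts and bars to the left the percent called lower, and dashed lines mark the shares over all genes tested, 25.4% higher and 30.4% lower. The lists of egg messages at the top reach left, to 14 of 14 for the subcortical maternal complex, and oxidative phosphorylation (58 of 62) and ribosomal proteins (65 of 77) reach right.

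The shares called in the lists of RNA polymerase II, the nucleolus, pumps and water channels, imprinted genes, the unfolded protein response and signalling were likewise near or below those of all genes in both directions, and for these lists the named genes are single results.

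The kinds of genes differed in their balance. Of 14116 tested protein-coding genes, 27.4% were called higher in blastocysts and 27.8% lower, with a median log2 fold change of 0. Of 1930 long noncoding RNAs, 12.4% were called higher and 47.8% lower, with a median of -3.26, and of 174 pseudogenes 14.9% and 47.1%. Among the 1915 genes with a mean of at least 100 TPM, 43.7% were called higher and 30.7% lower.

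The 4-cell embryos of library 1 held a different set of messages from those of libraries 2 and 3. At 4-fold or more from both of the others, with at least 10 CPM on the higher side, library 1 stood apart in 1497 genes, higher in 839 and lower in 658. By the same measure library 2 stood apart in 122 genes, library 3 in 160, and each blastocyst library in 16 to 28. No test applies to 1 library, so these are descriptions. Library 1 had 33771885 counts and 15543 genes with a count, against 15839 and 16735 genes in libraries 2 and 3. The TMM scaling factors of the 4-cell libraries were 1.33, 1.14 and 0.963, against 0.947 to 0.961 in blastocysts.

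Lists of genome activation, ribosomes and translation were higher in library 1. Its median log2 difference from the mean of libraries 2 and 3 was 2.04 over 77 ribosomal protein genes, 1.75 over 26 genes of genome activation, 1.72 over 30 nucleolar genes and 1.72 over 30 translation factors, where the median over all genes was -0.26. Of the ribosomal protein genes, 66 of 77 were above both other libraries and 28 by at least 4-fold, and of the nucleolar genes 27 of 30 were above both. RNA polymerase II and its general factors were divided, with a median of 0.46, 14 of 30 genes above both and 11 below both. Among the genes of genome activation, 18 of 26 were above both, and KLF4, NR5A2, PRDM14 and TFAP2C were so by at least 4-fold. KLF4, a pluripotency factor, had 212 CPM in library 1 against 26.5 and 16.8 CPM, and the germ cell and pluripotency factor PRDM14 had 42.1 CPM against 0 and 0 CPM. TFAP2C, a trophoblast and germ cell factor, had 583 CPM against 125 and 90.5 CPM, and FBL, the nucleolar methylase fibrillarin, had 488 CPM against 102 and 33.1 CPM. Some groups of egg messages were lower in library 1. The median difference was -1.59 over the 14 genes of the subcortical maternal complex, 12 of which were below both others, and -1.02 over 25 genes of egg meiosis and chromatin, 17 of which were below both. The other egg lists were closer to 0. The median was -0.51 over 14 genes of oocyte growth and the zona pellucida, with 4 above both and 7 below both, -0.6 over 20 genes of message storage and 0.19 over 26 genes of message decay. GDF9 was highest in library 1, and the summed level of the 10 oocyte markers in library 1, 18100 TPM, lay between 15500 and 21800 TPM in libraries 2 and 3. LOC100621706, 1 of the 10 most abundant 4-cell messages, had 1075 CPM in library 1 against 7181 and 5046 CPM.

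**Figure D5:**
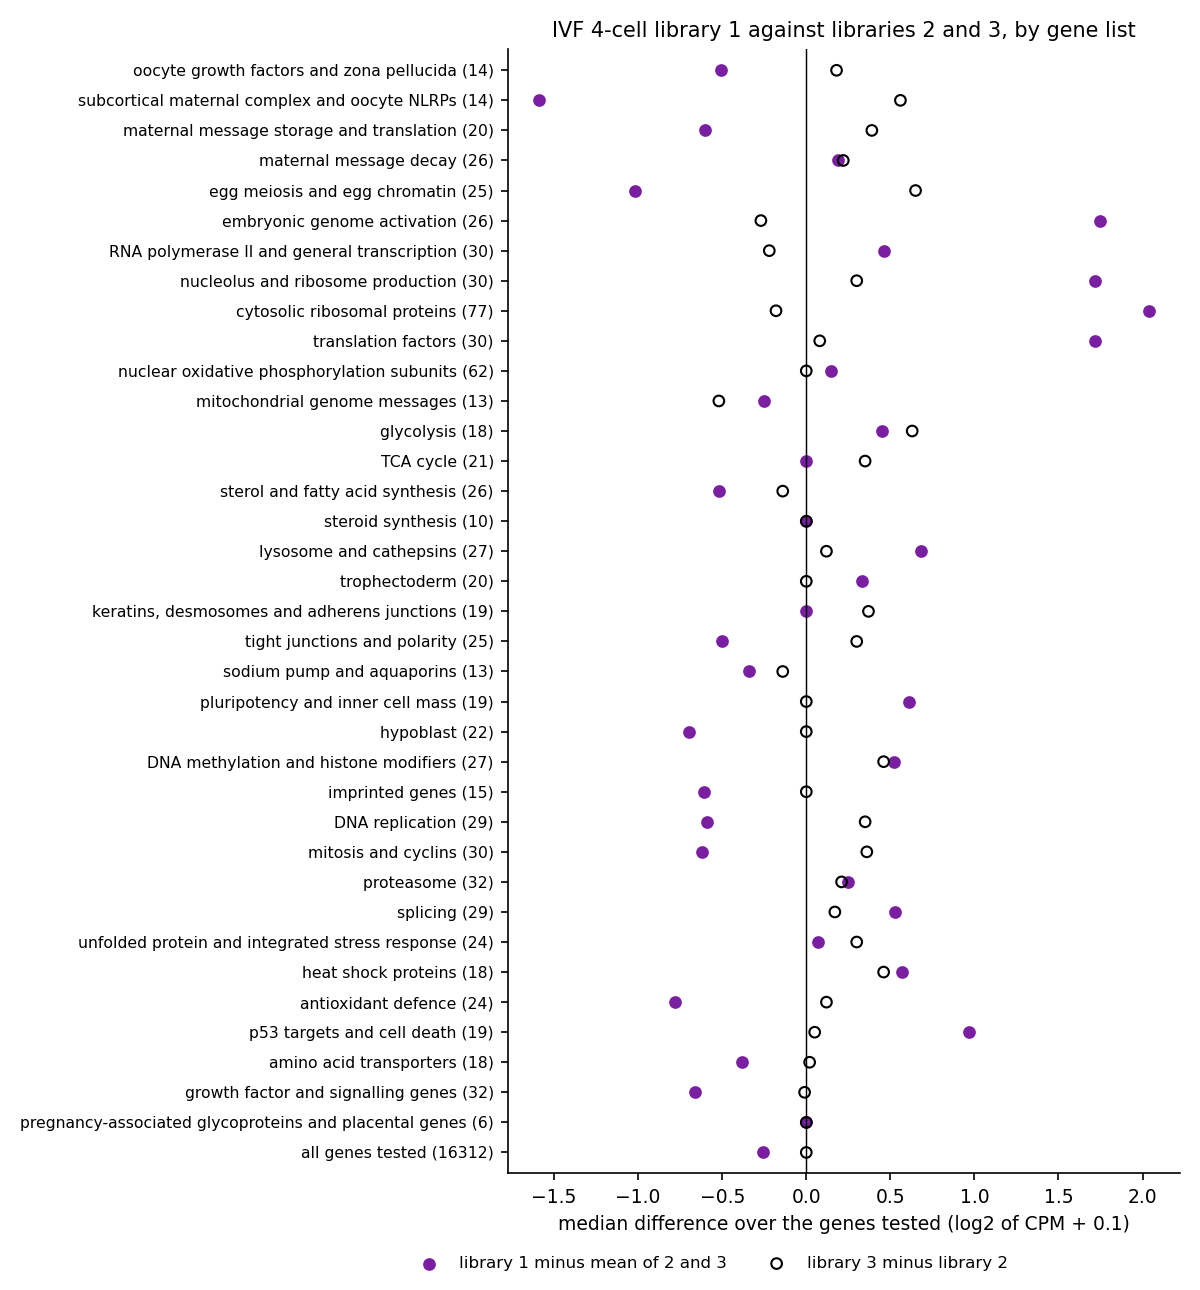
For each gene list, the filled point is the median difference of IVF 4-cell library 1 from the mean of 4-cell libraries 2 and 3, and the open point that of library 3 from library 2, on the log2 scale of CPM plus 0.1. Ribosomal proteins (2.04), genome activation (1.75), nucleolus (1.72) and translation factors (1.72) lie to the right for library 1, the subcortical maternal complex (-1.59) to the left. The open points are closer to 0 in those 5 lists, and farther from 0 than the filled ones in some others, such as glycolysis (0.63 against 0.45).

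The genes that set library 1 apart were also compared with the blastocysts. Of the 839 genes that were higher in library 1, 454 were at least 4-fold higher in blastocysts than in 4-cell libraries 2 and 3, and 206 were at least 4-fold lower in blastocysts than in library 1. Of the 658 genes lower in library 1, 358 were at least 4-fold lower in blastocysts than in libraries 2 and 3, and 195 were at least 4-fold higher in blastocysts than in library 1. Genes chosen for standing apart from 2 libraries favour such counts, so the same shares are given for libraries 2 and 3. Blastocysts lay on the side of the library that stood apart, by at least 4-fold from the other 4-cell libraries, for 54.1% of the genes higher and 54.4% of those lower in library 1, for 23.2% and 15.1% in library 2, and for 27.3% and 11.7% in library 3. Libraries 2 and 3 rest on 53 to 94 genes a side, and no test was made. For them library 1 was among the other 4-cell libraries, so their shares are not like for like with those of library 1. CD9, GPRC5C and LASP1 belong to the first kind. GPRC5C, an orphan receptor, had 258, 369 and 237 CPM in blastocysts, 80.0 CPM in 4-cell library 1 and 0 in libraries 2 and 3, and LASP1, an actin-binding protein, had 85.5, 148 and 97.3 CPM in blastocysts, 57.9 CPM in 4-cell library 1 and 0 in the others. PRDM14 belongs to the second, with 0.188, 0.382 and 0.743 CPM in blastocysts. SCPEP1, a serine carboxypeptidase, had 592, 639 and 921 CPM in blastocysts, 0 in 4-cell library 1, and 37.0 and 40.4 CPM in libraries 2 and 3. COL19A1, a collagen, had 0 counts in blastocysts and in 4-cell library 1, and 33.3 and 26.7 CPM in 4-cell libraries 2 and 3.

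Each 4-cell library was also placed on the way between the other 4-cell libraries (0%) and the blastocysts (100%), on a log scale and over genes called at 4-fold or more when that library was left out. Over genes lower in blastocysts, the median position was 23.8% for library 1, -4.06% for library 2 and -9.82% for library 3. Over genes higher in blastocysts it was 10.7%, 0% and 0%. Library 1 was more than midway for 29.6% of the genes higher in blastocysts, against 9.83% and 12.6% for libraries 2 and 3. It lay on the far side of the other 4-cell libraries, away from blastocysts, for 26.8%, against 38.0% and 31.4%. When library 2 or 3 was placed, library 1 was part of the reference and of the choice of genes. The values of libraries 2 and 3 are therefore not like for like with those of library 1, and no test was made. Blastocyst markers were not all nearer to the blastocyst level in library 1. KRT18 and CDX2 had 0 counts in library 1 as in libraries 2 and 3, and KRT8 had 0 in library 1. The sum of the 9 trophectoderm markers was 614 TPM in library 1, against 111 and 66.9 TPM, and came mainly from genes that lay above the blastocyst level there. TFAP2C was at 112 to 157 TPM in blastocysts and 508 TPM in 4-cell library 1, and TEAD4 at 59.1 to 70.7 TPM in blastocysts and 99.1 TPM in 4-cell library 1. Whether the embryos of library 1 differed in age, quality or handling is not given in the sources used here, and the part of library preparation in its values was not tested.

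Marker lists of other cells were low in sum, except that of blood and immune cells in blastocysts. The 13 matched markers of cumulus and granulosa cells, which surround the egg, summed to 0.909 to 1.88 TPM in blastocysts and 9.32 to 20.5 TPM in 4-cell embryos. FSHR, LHCGR, AMH and CYP19A1 were under 1 TPM in every library. INHBA, an activin subunit, had 1.11, 0.394 and 0.597 TPM in blastocysts and 12.9, 4.27 and 18.7 TPM in 4-cell embryos (edgeR adjusted p = 0.00715). VCAN, a matrix proteoglycan, had 0.0104, 0 and 0.0394 TPM in blastocysts and 2.39, 2.2 and 0.972 TPM in 4-cell embryos (edgeR adjusted p = 0.02). PTX3 was at 4.36 TPM in 4-cell library 1 and 0 in the other 4-cell libraries. The sperm markers PRM1, PRM2, TNP1 and TNP2 were under 1 TPM in every library, and the sum over that list, 32.7 to 40.4 TPM in blastocysts and 4.51 to 22.8 TPM in 4-cell embryos, came mainly from ODF2. The list of blood and immune cells summed to 240.0 to 320.0 TPM in blastocysts and 1.11 to 15.5 TPM in 4-cell embryos. In that list AIF1 gave 220.0 to 312 TPM in blastocysts and 0 in 4-cell embryos. LYZ, lysozyme, at 3.33 to 8.2 TPM, and HBE1, an embryonic globin, at 2.13 to 8.35 TPM in blastocysts, were also at 0 in 4-cell embryos, and all 3 of these were called higher. Of the other members, PTPRC, CD3E, HBB and ALAS2 were under 1 TPM in every library. Stromal and vessel markers summed to 4.08 to 48.6 TPM in blastocysts and 11.4 to 19.9 TPM in 4-cell embryos, and markers of oviduct and uterine epithelium to 12.1 to 17.7 TPM and 3.65 to 15 TPM.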

How the data were processed

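Poly(A)-selected RNA of pooled IVF embryos was read as pairs on an Illumina HiSeq, per the labels' protocols. The authors deposited 1 gene table on Sscrofa11.1 with whole-number read counts, not normalised, and with TPM values, which the authors scaled by gene length and to an equal sum in every library. Tools named in the submitters' processing notes, without their roles, are RSEM, HISAT2, Bowtie2, StringTie 1.3.1 and fastp 0.18.0. How shared reads were divided and whether strand was used is not given in the sources used here. Of 39 value columns, 24 were not used.

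Counts of the 9 IVF libraries (3 groups, hatched blastocysts included for the estimate of spread) entered 1 robust quasi-likelihood fit (edgeR 4.0.16, R 4.3.3), scaled by TMM and filtered for low counts. P-values were adjusted over all tested genes by Benjamini-Hochberg, and a gene under 0.05 counts as called. The code was tested on simulated data. CPM are counts scaled to the TMM library size. TPM were used only for levels. Intervals (95%, exact) and floors of 3 counts cover counting error only. Gene positions and kinds come from RefSeq, matched for 28208 of 28232 genes by gene number, and 488 genes share a symbol. No library pair of a group was a repeat of the other (the lowest chi-square statistic was 72.5 times its degrees of freedom).

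The members and lists were chosen with earlier results of these data known. The 36 lists asked for 977 entries, of which 922 were matched and 890 tested, and they are described by counts and medians. Genes were named by a rule: on each side the 8 called genes of largest fold with at least 5 CPM, from each list up to 3 called genes of smallest p and 1 of the other direction, a set of stage genes, 17 pairs of related genes, the 10 genes of highest TPM per group, and the 8 genes on each side by which 4-cell library 1 stood apart. Some of these are not reported here. FBL, TFAP2C, TEAD4, KLF4, NR5A2, DUXA and the marker genes of other cells were named after their values were seen. Alternatives were DESeq2 1.42.0, other scalings and filters, the 6 libraries alone, a test against a 2-fold change, a replicate block and each library left out.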

Additional observations from a re-analysis of the deposited data

How the results depend on the processing

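The counts of genes called stayed within 1.5 times under every alternative run. For all, higher and lower genes they were 10033, 4388 and 5645 with DESeq2, 9111, 4043 and 5068 with DESeq2 size factors in edgeR, 9027, 3700 and 5327 with library size only, 8652, 3970 and 4682 with no filter, 7633, 3158 and 4475 with the 6 libraries alone, and 7531, 3394 and 4137 against a 2-fold change. With 1 library left out they ranged from 7470 to 11335, from 3428 to 5568 and from 3935 to 5767, highest without 4-cell library 1. The replicate block gave 7914 calls, 3815 higher and 4099 lower. Same-numbered libraries did not deviate together (r of 0.000602, -0.00771 and 0.0186), so no pairing by number was seen. Deviations from a mean of 3 libraries, with 4-cell library 1 far from the others, cannot exclude a shared origin. The sources used here do not give the origin. Library size only moved the median of all genes to -0.50, DESeq2 size factors to -0.30 and leaving out 4-cell library 1 to -0.09.

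Of 183 named genes called, 0 changed sign and 15 lost the call without some library. The call was lost for 17 in the test against a 2-fold change (AURKB, BTG1, DPPA3, ND5, SLC2A3 and WEE1 among those printed), 11 with the 6 libraries alone (CS, GATA3, NDUFA1 and PDE3B), 6 with library size only (NPM1 and UCHL3), 6 with the replicate block (CS, NPM1, PDE3B, UCHL3 and WEE1), 3 with no filter and 2 with DESeq2 size factors. DESeq2 gave no adjusted p for 3 (CD9 and AQP3 among them) and lost 0 of the others. Signs changed only in genes that were not called: ATP1B1 ranged from -0.96 to 0.49 with 1 library left out (0.49 without 4-cell library 2), LSM14B was -0.10 with library size only, HSPA2 0.09 with the replicate block, 1.40 without 4-cell library 1 and 0.23 without blastocyst library 2, and FBXO5 0.32 and 0.06 without those 2 libraries, and the lowest values with 1 library left out were -0.48 for HSPA2 and -0.17 for FBXO5. The medians of 8 lists changed sign, with reported medians between -0.71 and 0.18. With library size only, those of polymerase II, nucleolus and mitosis were -0.20, -0.20 and -0.21. Without 4-cell library 1, mitosis was -0.02, DNA methylation 0.32, imprinted genes 0.51, splicing 0.19 and signalling 0.14. Without 4-cell library 2, nucleolus was -0.03, the sodium pump list 0.16, imprinted genes 0.25 and signalling 0.35. Without 4-cell library 3, polymerase II was -0.04, the sodium pump list 0.51, mitosis -0.04 and splicing 0.02. Imprinted genes were 0.08 with no filter and 0.33 without blastocyst library 2. The other ends of these ranges with 1 library left out were 0.27 for polymerase II, 0.82 for nucleolus, -0.87 for the sodium pump list, -1.15 for DNA methylation, -0.32 for imprinted genes, -0.23 for splicing, -0.53 for signalling and 0.19 for mitosis. The cause was not tested.

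The genes by which a 4-cell library stood apart numbered, for libraries 1, 2 and 3, 3967, 662 and 923 at 2-fold, 564, 39 and 54 at 8-fold, 2002, 309 and 339 from 5 CPM, and 1047, 41 and 64 from 20 CPM. Library 1 had the most in each. Depth limits folds of genes with few counts, since 3 counts are 0.0668 to 0.0927 CPM.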
